A study of Mus musculus with 6 samples.

Results

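The TRAF adaptors and their partners in NF-kB control were followed in lymph node CD4+ T cells of infant and adult mice. The set holds 10 genes, matched by symbol in a table of 52997 genes: the adaptors Traf1, Traf2, Traf3, Traf5 and Traf6, and the regulators Tnfaip3, Birc2, Birc3, Tank and Bcl3. It was put together with earlier results of the same age comparison known, in which Traf1 stood among the lower genes, so the differences given here for the 10 genes are a description and no independent evidence. All 10 had enough counts to be tested in the fit across 11681 genes.

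RNA came from pooled lymph nodes of 3 adult mice aged 7 weeks and 3 infant mice aged 10 days. All 6 animals were of the Foxp3-GFP strain on the C57BL/6 background, in which a green fluorescent reporter marks cells that express Foxp3, the transcription factor of regulatory T cells. Each library came from 1 mouse and 1000 sorted cells that the series calls naive and the library titles call Tconv, and the sources used here do not give the gate. Age was the only labelled difference between the groups.

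TRAF proteins are adaptors that bind the inner tails of TNF receptor family members and of receptors that signal through MyD88. From there they gather ubiquitin ligases and kinases, which release NF-kB from its inhibitors or process its precursors. TRAF2 and TRAF3, together with the ligases cIAP1 and cIAP2 (genes Birc2 and Birc3), keep the kinase NIK of the alternative NF-kB pathway low in resting lymphocytes. TRAF1 lacks the RING domain of its relatives, binds TRAF2 and is induced by NF-kB. A20, the product of Tnfaip3, removes ubiquitin chains and ends NF-kB signalling. In T cells these proteins act mainly below costimulatory receptors such as OX40, 4-1BB, GITR and CD27.

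Libraries held 3421253 to 4887371 counts. Adult replicate 2 stood apart, in that 36373 genes had a count there, while the other 5 had 17992 to 21840 such genes. It had 1.85 counts per kb of exon over untested protein-coding genes of the autosomes, against 0.186 to 0.349 in the others. At that density it would hold 1.92% of its own Traf1 counts, 8.57% of Traf3, 8.69% of Tnfaip3 and 13.1% of Bcl3, and at most 5.05% of each of the other 6 genes. Cells were labelled as CD4+ T cells, and all 15 markers listed for naive CD4+ T cells had counts in both groups, with summed levels of 11220 to 13040 CPM (counts scaled to a common library size) in adult and 11600 to 12020 CPM in infant libraries.

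Of the 10 genes 1 passed the test, Traf1, which was lower in infant cells, and 0 were higher (quasi-likelihood test of edgeR, adjusted p below 0.05). Of all tested genes 3.64% passed, 2.11% lower and 1.52% higher, and nothing is read from the count because the set was chosen on this comparison. The median log2 fold change (infant over adult) of the 10 was −0.074, beside −0.0017 over all tested genes. The infant values lay wholly below the adult values for Traf1, Traf2 and Bcl3 and wholly above them for Tank. Over all tested genes such a gap was found in 11.6% below and 11.2% above.

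Among the adaptors, Traf1 (chromosome 2, 34941750 to 34961772, minus strand, mm10) had 1131, 851 and 1262 counts in adult replicates 1 to 3 and 317, 292 and 331 in infant replicates 1 to 3. That is 274, 242 and 270 CPM in adult and 66.4, 70.6 and 79.9 CPM in infant libraries. Every infant library lay below every adult one, and the gap was far wider than the spread inside either group (262 ± 17.5 and 72.3 ± 6.94 CPM, mean ± SD, n = 3 each). Infant cells held 3.62-fold less (log2 fold change of −1.86 ± 0.12, SE; 95% interval −2.12 to −1.60; edgeR adjusted p = 1.05e-06). Leaving out any 1 library gave log2 fold changes of −1.94 to −1.79 with an adjusted p of at most 2.86e-04 in edgeR, and without adult replicate 2 the value was −1.91. In bulk RNA, fewer cells with the transcript and less transcript per cell cannot be told apart.

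Traf2, the adaptor and scaffold for the cIAP ligases, had 171, 129 and 121 CPM in adult and 88.1, 109 and 104 CPM in infant libraries. The infant libraries were all lower, and adult replicate 1 was the highest. The log2 fold change was −0.48 ± 0.15 (95% interval −0.80 to −0.17) and did not pass in edgeR (adjusted p = 0.0919), while DESeq2 gave −0.47 with an adjusted p of 0.0222. Without adult replicate 1 it was −0.31 in edgeR (adjusted p = 0.376).

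Traf3, which restrains NIK, had 67.9, 45.2 and 64.7 CPM in adult and 55.3, 60.9 and 56.0 CPM in infant libraries. All infant values fell inside the adult range, whose low end was adult replicate 2. The log2 fold change was −0.050 with a 95% interval of −0.41 to 0.31.

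Traf5, a close relative of TRAF3 that acts below OX40 and the IL-6 receptor, had 124, 109.9 and 138 CPM in adult and 137, 119 and 109.9 CPM in infant libraries. The groups overlapped almost fully, and the interval of the log2 fold change ran from −0.31 to 0.26 around −0.026.

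Traf6, the ligase of the MyD88 and T cell receptor routes, had 90.7, 82.1 and 84.0 CPM in adult and 117, 99.9 and 87.7 CPM in infant libraries. Infant replicate 3 lay inside the adult range and the other infant libraries above it. Its log2 fold change was 0.25 (95% interval −0.047 to 0.54, edgeR adjusted p = 0.396). The 95% interval of Traf1 lay below those of all 4 other adaptors. The difference in change between Traf1 and the other adaptors was not tested by itself, and the intervals are not adjusted for the number of genes.

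**Figure D1:**
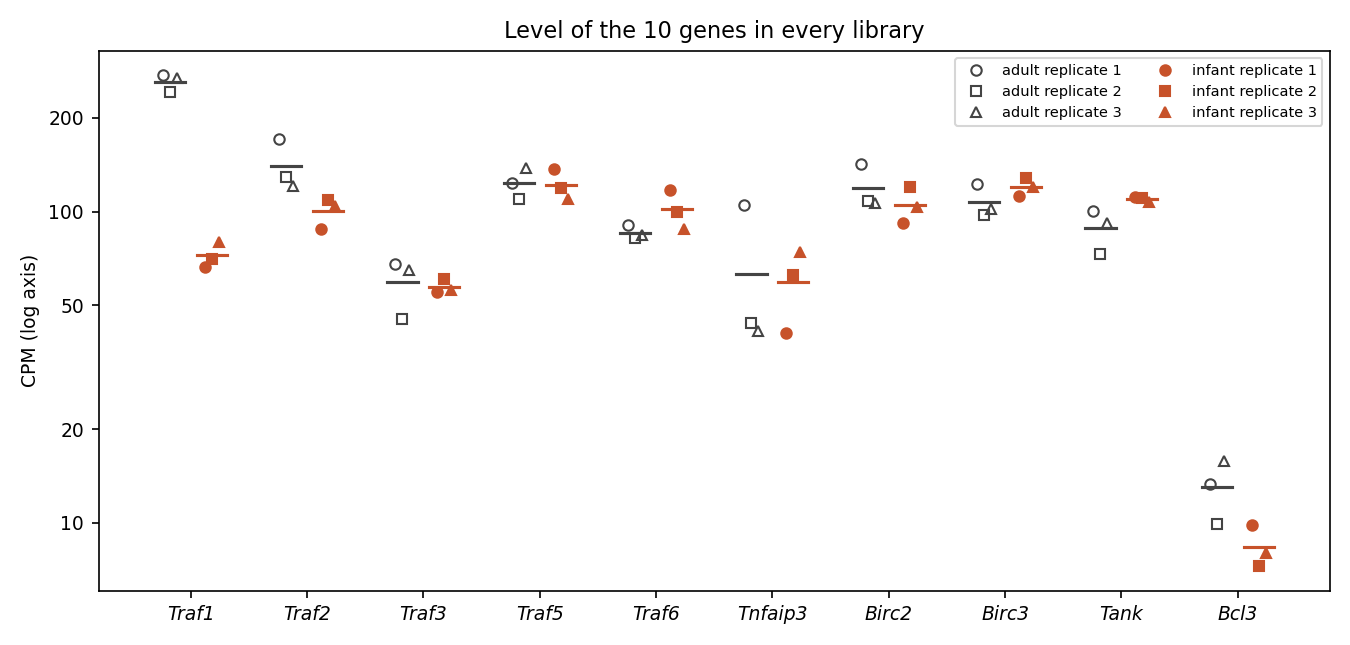
CPM (log axis) of the 10 genes in the 3 adult libraries (open symbols) and the 3 infant libraries (filled symbols), with 1 symbol shape per replicate number and a bar at each group mean. The Traf1 values of 66.4 to 79.9 CPM in infant libraries lie far under the 242 to 274 CPM of adult libraries, and Tnfaip3 has the widest spread inside a group.

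**Figure D2:**
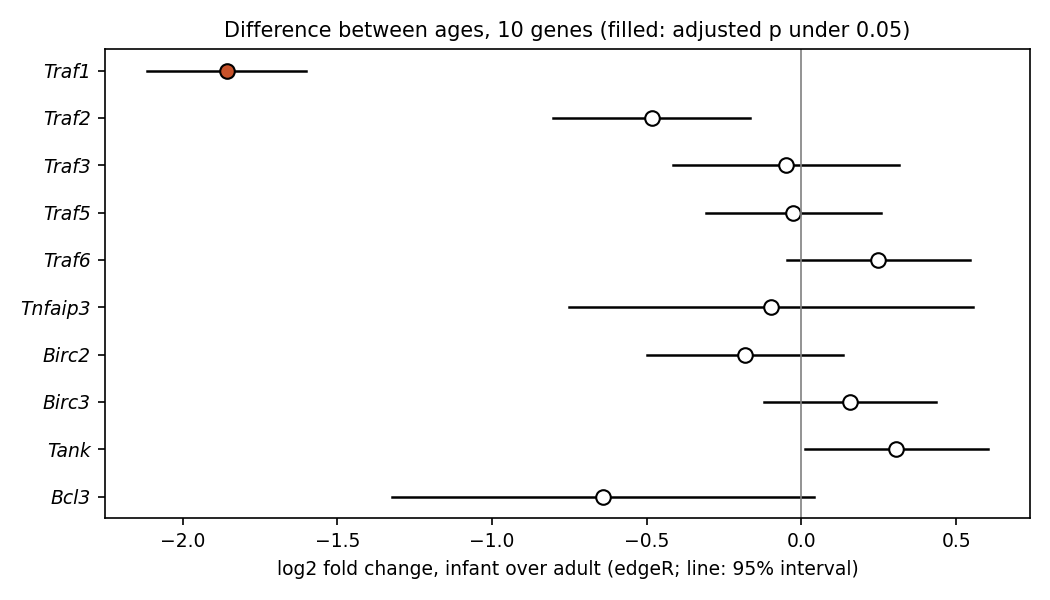
Log2 fold change of infant over adult cells for the 10 genes (points, filled where the edgeR adjusted p was under 0.05) with 95% intervals (lines). Traf1 lies at −1.86, and the intervals of Traf3, Traf5, Traf6, Tnfaip3, Birc2, Birc3 and Bcl3 include 0.

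Per kb of annotated exon, Traf1 was the most abundant of the 10 genes in adult cells and the seventh in infant cells. Adult levels were 29.7 ± 1.99 CPM per kb for Traf1, 27.5 ± 5.30 for Traf2, 27.2 ± 3.10 for Traf5, 26.0 ± 4.38 for Birc2 and 21.5 ± 2.70 for Birc3. Among the first 4, neighbours in the order differed by less than the larger of their SDs. Tank followed with 14.5 ± 2.32, Traf6 with 10.9 ± 0.571, Tnfaip3 with 8.75 ± 4.98, Traf3 with 8.06 ± 1.67 and Bcl3 with 5.26 ± 1.19 CPM per kb. In infant cells Traf5 led with 26.7 ± 2.99 CPM per kb, ahead of Birc3 (23.9 ± 1.57), Birc2 (23.0 ± 3.09), Traf2 (19.7 ± 2.11), Tank (17.99 ± 0.404) and Traf6 (12.9 ± 1.89). Traf1 at 8.20 ± 0.787 CPM per kb was then level with Tnfaip3 (8.19 ± 2.34) and Traf3 (7.81 ± 0.419), with Bcl3 last at 3.38 ± 0.539.

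The 5 adaptors summed to 113, 93.3 and 104 CPM per kb in adult and 77.1, 76.3 and 72.3 CPM per kb in infant libraries. Without Traf1 the other 4 summed to 73.6 ± 7.75 and 67.1 ± 3.36 CPM per kb, with overlapping groups. Traf1 made up 27.6%, 29.4% and 29.4% of the adaptor sum in adult libraries and 9.76%, 10.5% and 12.5% in infant libraries. For each Traf2 transcript by this measure there were 0.927, 1.08 and 1.29 of Traf1 in adult cells and 0.436, 0.376 and 0.443 in infant cells. Because these are shares of 1 sum, the shares of the others go up where Traf1 goes down: Traf5 held 26.3% ± 2.55 in adult and 35.4% ± 2.98 in infant libraries. The lengths are uncertain, since the annotated exons of Traf1 cover 8819 bases but its longest coding transcript 3436. With the coding transcripts as lengths Traf1 made up 36.7% and 15.004% and was again first of the 10 in adult cells, and it was sixth in infant cells. By those lengths Traf1 had 76.2 ± 5.11 and Traf2 46.1 ± 8.89 CPM per kb in adult cells. In infant cells they had 21.0 ± 2.02 and 33.0 ± 3.54, so the ratio of Traf1 to Traf2 also depends on the lengths used.

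**Figure D3:**
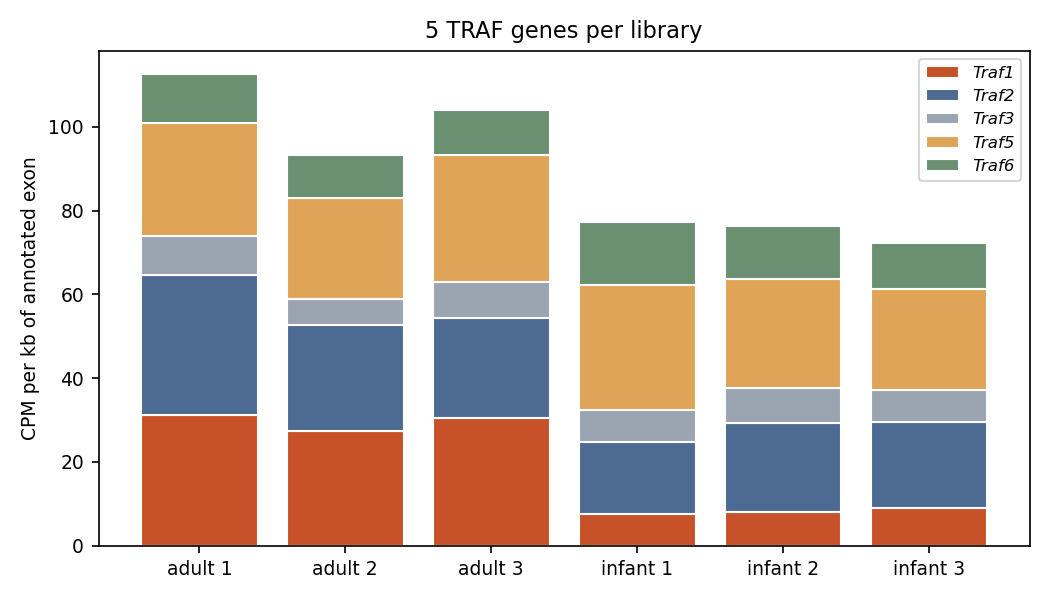
Stacked bars of CPM per kb of annotated exon for the 5 TRAF genes, 1 bar per library. The Traf1 segment at the base shrinks from 27.4 to 31.1 CPM per kb in adult libraries to 7.53 to 9.06 in infant libraries, and the rest of the bars sums to 63.3 to 81.4.

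Among the regulators, Tnfaip3 varied most inside the groups. It had 105, 43.8 and 41.2 CPM in adult and 40.8, 62.6 and 74.1 CPM in infant libraries, so that adult replicate 1 alone held the highest value of all 6. Its pooled coefficient of variation within groups was 45.0%, against 8.28% for Traf1 and 10.0% to 19.6% for the other 8. The log2 fold change was −0.099 with a 95% interval of −0.75 to 0.55, and it was 0.48 without adult replicate 1 (edgeR adjusted p = 0.396).

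Birc2 had 142, 109 and 107 CPM in adult and 92.1, 120.2 and 103 CPM in infant libraries, and the groups overlapped (log2 fold change −0.18, 95% interval −0.50 to 0.14). Birc3, its neighbour on chromosome 9, had 123, 97.7 and 102 CPM in adult and 112, 128 and 120 CPM in infant libraries, with overlap in the other direction (0.16, −0.12 to 0.44). Neither passed in edgeR. Set against each other per kb, Birc3 stood at 0.790, 0.823 and 0.872 of Birc2 in adult and at 1.11, 0.973 and 1.06 of Birc2 in infant libraries. The groups do not overlap in this ratio, which was formed after the values had been seen and was not tested.

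Tank, which binds TRAFs and the kinase TBK1 and limits NF-kB activation, had 101, 73.0 and 92.1 CPM in adult and 112, 110.3 and 107 CPM in infant libraries. All infant values were above the adult ones and close to each other. The log2 fold change of 0.31 ± 0.14 did not pass (edgeR adjusted p = 0.271), and it was 0.19 to 0.41 when 1 library was left out.

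Bcl3, an atypical IkB protein that works in the nucleus with p50 and p52, was the least abundant. It had 55, 35 and 74 counts in adult and 47, 30 and 33 in infant libraries, which is 13.3, 9.94 and 15.8 CPM in adult and 9.84, 7.26 and 7.97 CPM in infant libraries. The groups did not overlap, but adult replicate 2 and infant replicate 1 were next to each other. The log2 fold change was −0.64 with a wide 95% interval (−1.32 to 0.040, edgeR adjusted p = 0.331).

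Markers of other cells were read beside Traf1. In the list for CD8 T and natural killer cells, 3 of 8 genes were testable and 2 fell in infant cells, Prf1 (84.7 ± 6.40 to 23.3 ± 5.97 CPM, perforin) and Klrd1 (19.7 ± 5.74 to 7.78 ± 0.90 CPM, CD94). The list summed to 138 to 148 CPM in adult and 67.1 to 68.3 CPM in infant libraries. Without Prf1 and Klrd1 the rest summed to 34.7 to 42.6 and 32.2 to 41.8 CPM. That rest overlaps, but the genes that passed were left out after their values had been seen, so nothing is read from it. Most other genes of the list were low. Ncr1 was at 0 in all 6 libraries, Gzmb, Nkg7 and Klrb1c had at most 5.11 CPM and Cd8a at most 1.93. Cd8b1 had 33.6 ± 2.93 CPM in adult and 35.3 ± 4.31 CPM in infant libraries. The part of this list in the Traf1 difference was not tested.

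Traf1 is known to be induced in activated T cells. The list of memory and effector markers summed to 162 to 198 CPM in adult and 259 to 281 CPM in infant libraries. Of its 12 genes 6 were testable, and Ahnak (30.9 ± 6.64 to 92.3 ± 5.69 CPM) and Lgals1 (43.3 ± 12.5 to 84.5 ± 9.67 CPM) rose in infant cells, while 0 passed as lower and S100a4 was at 0 in all libraries. Itgb1 had 17.8 ± 5.16 and 10.2 ± 1.29 CPM, with the infant values wholly below the adult ones, and did not pass (log2 fold change −0.80, edgeR adjusted p = 0.172). Without Ahnak and Lgals1 the memory list summed to 88.5 to 107 CPM in adult and 86.2 to 106 CPM in infant libraries. The regulatory T cell list summed to 73.3 to 87.2 CPM in adult and 102 to 128 CPM in infant libraries, and of 7 testable genes Gpr83 rose (32.0 ± 4.55 to 69.4 ± 14.2 CPM) and 0 fell. Ikzf4, the other abundant gene of that list, had 20.2 ± 1.24 and 20.6 ± 3.49 CPM. Foxp3 had 5.60 ± 0.968 and 7.61 ± 1.39 CPM and did not pass (log2 fold change 0.45, edgeR adjusted p = 0.626). Its infant values lay wholly above the adult ones, as did those of Gpr83, and 0 testable genes of the list lay wholly below. Without Gpr83 the regulatory T cell list summed to 38.1 to 59.9 CPM in adult and 47.1 to 49.8 CPM in infant libraries. Both sums overlapped between the ages once the genes that passed were left out, a step chosen after the values had been seen. Leaving out the genes that differ tends to bring the sums together by construction, so nothing is read from that overlap. The whole lists did not overlap between the ages, and their part in the Traf1 difference was not tested.

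B cell markers summed to 8.97, 21.6 and 10.5 CPM in adult replicates 1 to 3 and to 6.05 to 9.63 CPM in infant libraries, with Cd79a the most abundant. The highest sum was that of adult replicate 2, the library with counts in the most genes. Myeloid markers summed to 15.2 to 25.9 CPM in adult and 32.4 to 37.9 CPM in infant libraries, with Itgam and Zbtb46 the most abundant and Fcgr3 the gene that rose (2.26 ± 0.760 to 8.13 ± 1.44 CPM). The sum of the stromal markers was almost all Pecam1, which had 347 ± 44.0 and 378 ± 9.04 CPM. The others of that list, Col1a1, Col1a2, Pdgfrb, Pdpn and Cdh5, had too few counts to be tested. Among the naive markers, Lck and Ccr7 were the most abundant and did not pass.

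The genes around Traf1 on chromosome 2 were looked up after its values had been seen. Of 8 other tested genes within 300000 bases, Gsn passed, in the opposite direction (log2 fold change 0.56, edgeR adjusted p = 0.0374). The nearest tested genes on either side, Psmd5 and Cntrl, had log2 fold changes of −0.10 ± 0.16 and 0.068 ± 0.10. The 250 bases upstream of the RefSeq start of Traf1 are shown because this gene carries the difference (build GRCm38.p6, chr2:34961773-34962022, minus strand, 5′ to 3′).
Traf1: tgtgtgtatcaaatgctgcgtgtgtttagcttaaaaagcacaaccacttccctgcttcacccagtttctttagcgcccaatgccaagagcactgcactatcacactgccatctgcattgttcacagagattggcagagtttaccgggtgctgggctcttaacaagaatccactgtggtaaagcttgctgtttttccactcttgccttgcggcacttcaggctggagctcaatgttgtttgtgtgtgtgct

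All 10 genes had at least 1 promoter window in the RefSeq table of 300 bases per start (250 before and 50 after), 15 windows in all. The consensus kappaB motif, searched on both strands, was found in windows of Bcl3, Tank, Tnfaip3 and Traf3, which is 4 of 10 genes, beside 9.55% of the 27025 genes in the table. It was not found in the single window of Traf1, which says only that these letters are not in that window, and the 9 annotated transcripts of Traf1 begin at several places. A broader form, in which only the outer G and C bases are fixed and which takes in every match of the consensus, was found for 8 of 10 genes, all but Traf1 and Birc2, beside 53.5% of all genes. Counted by window, the consensus was found in 7 of 15, beside 8.46% of 32851 windows, and overlapping windows of Tank share matches. Genes with more windows have more places for a match. The 10 genes were also picked for their part in NF-kB control, so nothing is read from these shares. The matches of the consensus motif are shown in capitals with 10 bases on either side, on the strand of the gene, to let the sites be compared. Their first bases lie 10 bases upstream of the start in Traf3, 125 and 12 upstream in Tnfaip3, 10 and 72 upstream of different starts in Tank, and 2 downstream of the start base in Bcl3.
Traf3 (chr12:111166350-111166379): ggcggcccgcGGGGATTTCCagcgcgcgag
Tnfaip3 (chr10:19015516-19015545): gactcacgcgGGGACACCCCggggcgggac
Tnfaip3 (chr10:19015403-19015432): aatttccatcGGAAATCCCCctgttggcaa
Tank (chr2:61578537-61578566): atttctcagtGGAAGTCCCCagttcaacac
Tank (chr2:61593015-61593044): ctttgtgggcGGGGCTTTCCtgcagaggcg
Bcl3 (chr7:19822734-19822763): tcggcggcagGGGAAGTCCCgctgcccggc
The 4 genes with a match had log2 fold changes of −0.050 (Traf3), −0.099 (Tnfaip3), 0.31 (Tank) and −0.64 (Bcl3), and none of these passed in edgeR. A match is a description of letters and not a binding site.

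Beyond the 10 genes, 86 of 104 listed genes of the pathway were testable, and 7 fell and 1 rose in infant cells in edgeR (background 2.11% lower and 1.52% higher). Their median log2 fold change was −0.064. The 7 became 1 without adult replicate 1 or infant replicate 2, 4 without adult replicate 3 or infant replicate 1, 2 without infant replicate 3 and 6 without adult replicate 2. The 1 that rose became 0 when any library but adult replicate 2 was left out. The calls of Nfkbia, Icam1 and Cd83 were known from earlier results when the lists were chosen. Nothing is therefore read from the counts of pathway genes set beside those of all tested genes.

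Ligands came first in the order of the pathway. Of 8 testable TNF family ligands 1 fell and 0 rose. Ltb, which encodes lymphotoxin beta, had 1057, 1250 and 1154 CPM in adult and 608, 672 and 654 CPM in infant libraries. The infant values stood apart from the adult ones (a log2 fold change of −0.84 ± 0.099 with an adjusted p of 2.69e-04 in edgeR), and the call was kept without any 1 library. Its receptor gene Ltbr, which T cells are known to lack, had at most 1.14 CPM.

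Of 12 testable TNF receptor genes, Tnfrsf26, a decoy-like receptor, fell and Tnfrsf13b, which encodes the BAFF and APRIL receptor TACI, rose. Tnfrsf26 had 142, 142 and 99.99 CPM in adult and 86.5, 88.8 and 74.1 CPM in infant libraries, and its call went when any library but adult replicate 3 was left out (highest edgeR adjusted p 0.179), as well as with library totals, limma-voom or thinned counts (adjusted p = 0.0540, 0.0514 and 0.0513). Tnfrsf13b had 64.5, 79.5 and 75.6 CPM in adult and 105, 106 and 114 CPM in infant libraries, and its call went when any library but adult replicate 2 was left out (highest edgeR adjusted p 0.139).

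Between the adaptors and the IkB proteins 0 of 18 testable adaptor and kinase genes passed in either direction (median log2 fold change 0.091). The IKK-beta gene Ikbkb had 467 ± 18.9 and 536 ± 13.2 CPM and Ikbke 421 ± 61.9 and 463 ± 52.1 CPM. The T cell receptor route through Prkcq (683 ± 56.4 and 676 ± 38.2 CPM) had 0 of 4 passing. Of 17 ubiquitin genes 0 passed (median −0.15), with Rbck1, a subunit of the linear ubiquitin ligase, at 420.3 ± 13.8 and 452 ± 37.0 CPM and the A20 partner Tax1bp1 at 349 ± 28.04 and 329 ± 12.2. Of 7 testable TRAF relatives 0 passed (median 0.074), among them Traf3ip3 (435 ± 45.6 and 457.9 ± 10.04 CPM) and Traf7 (115 ± 15.9 and 123 ± 8.21 CPM).

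**Figure D4:**
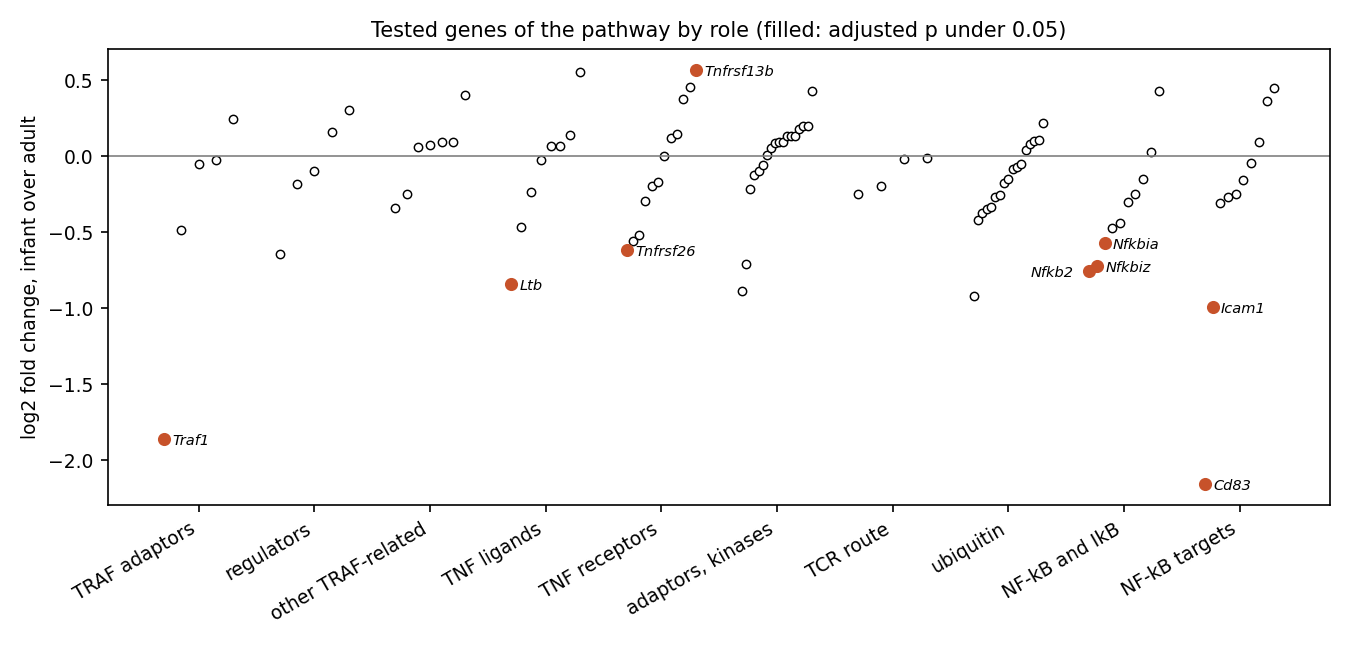
Log2 fold change of infant over adult cells for all tested genes of the pathway, sorted within each role, with genes of an edgeR adjusted p under 0.05 filled and named. The adaptors and kinases, T cell receptor route and ubiquitin genes have 0 filled points, and Traf1 and Cd83 lie lowest.

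NF-kB subunits and IkB genes had 3 of 10 members down and 0 up (median log2 fold change −0.37), where 2.11% of all tested genes passed as lower. The infant values lay wholly below the adult values in 8 of the 10, where 11.6% of all tested genes did so, and Nfkb1 and Nfkbid overlapped. The call of Nfkbia was known when the list was chosen, so nothing is read from these counts. Nfkbia, the main inhibitor and a target of NF-kB, had 508, 432 and 456 CPM in adult and 323, 319 and 299.7 CPM in infant libraries (a log2 fold change of −0.57 ± 0.10 with an adjusted p of 0.00669 in edgeR). Nfkb2, the precursor of p52 in the alternative pathway, had 80.7, 80.4 and 104 CPM in adult and 64.3, 45.7 and 47.3 CPM in infant libraries (−0.75 ± 0.17). Nfkbiz, a nuclear IkB protein, had 63.0, 69.9 and 62.8 CPM in adult and 38.7, 36.5 and 43.5 CPM in infant libraries (−0.72 ± 0.15). All 3 stood apart by group, yet each lost its call without some library: Nfkbia without 3 of the 6 in turn, Nfkb2 and Nfkbiz without 4 (edgeR adjusted p at most 0.0668, 0.160 and 0.120). Nfkbiz also missed the threshold when the counts were thinned to the smallest total (edgeR adjusted p = 0.0516).

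**Figure D5:**
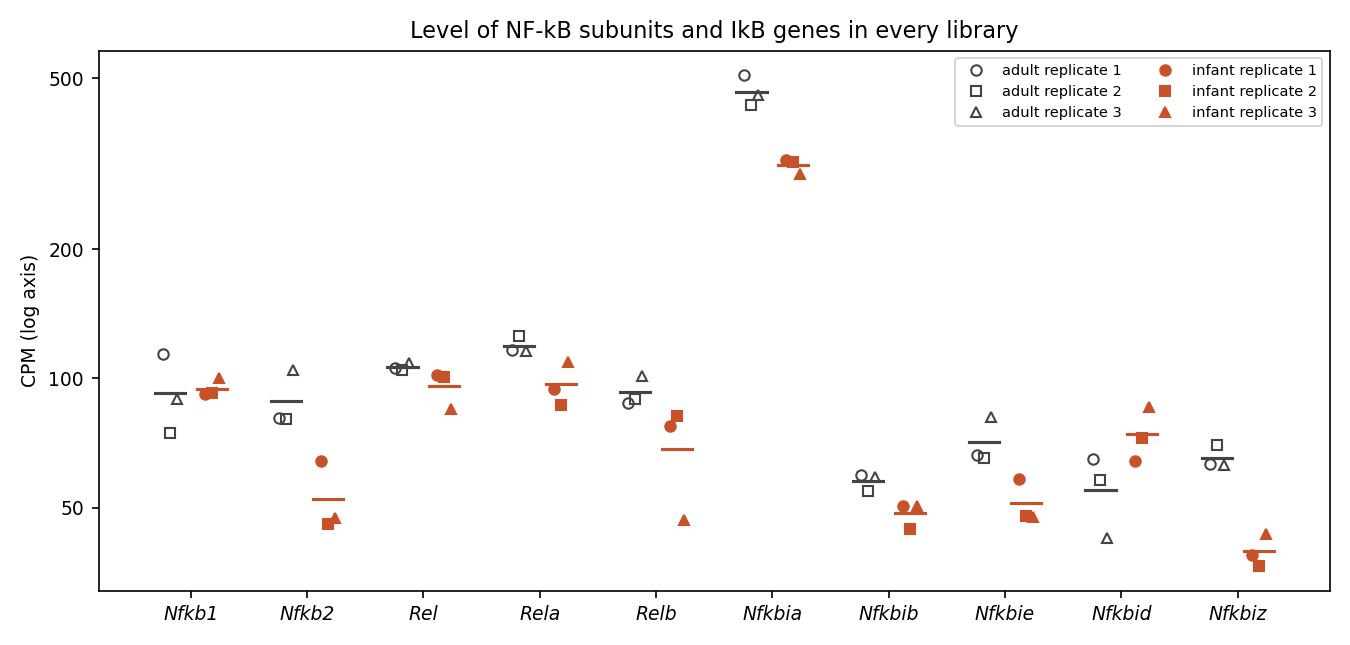
CPM (log axis) of 10 NF-kB subunit and IkB genes in every library, with symbols as in the plot of the 10 main genes and a bar at each group mean. Nfkbia, Nfkb2 and Nfkbiz show the gaps that passed the test, and Nfkb1 and Nfkbid overlap.

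Targets of NF-kB outside the pathway had 2 of 10 testable genes down and 0 up (median log2 fold change −0.20). Of all tested genes 2.11% passed as lower and 1.52% as higher. The infant values lay wholly below the adult ones in 3 of the 10 targets and wholly above in 1, Myc. Over all tested genes this held for 11.6% and 11.2%. The 2 genes that passed, Icam1 and Cd83, were known calls when the list was chosen, so nothing is read from these counts. Icam1, an adhesion molecule, had 45.1, 34.4 and 43.6 CPM in adult and 22.6, 22.0 and 17.4 CPM in infant libraries. Cd83 had 12.8, 22.4 and 7.05 CPM in adult and 3.98, 2.42 and 2.90 CPM in infant libraries. Icam1 and Cd83 both stood apart by group. Their calls were lost without 4 and 5 of the 6 libraries in turn (edgeR adjusted p at most 0.0790 and 0.113). That of Cd83 was also lost with limma-voom (adjusted p = 0.0665). Myc went the other way without passing, at 135, 139 and 162 CPM in adult and 176, 197 and 222 CPM in infant libraries. Its log2 fold change was 0.45 (edgeR adjusted p = 0.0604).

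Reads of 25 bases set a limit on single genes. Of all 25-base words in the annotated transcripts, 15.6% for Traf5, 13.9% for Birc3, 4.77% for Traf2, 4.70% for Bcl3 and 3.78% for Birc2 also occurred in transcripts of another gene on either strand, against at most 0.48% for Traf1, Traf3, Traf6, Tnfaip3 and Tank. Birc2 and Birc3 shared 116 words, and Traf3 and Traf5 shared 1. The antisense genes Gm26879 at Traf5 and Gm16175 at Bcl3 overlap 4.49% and 6.51% of the exons of their partners. Gm26879 had 1 count in adult and 1 in infant libraries, and Gm16175 had 3 and 1. The kit does not preserve strand, so that reads of these pairs cannot be told apart. The values of Traf5, Birc3 and Bcl3 are less certain, for the shared words or the antisense overlap.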

How the data were processed

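The deposited values are raw counts by gene symbol in 6 libraries, which the authors made with STAR 2.5.4 and featureCounts on mm10, per the submitters' processing notes. The labels' protocols describe oligo(dT) priming, PCR amplification, transposase fragmentation and paired reads of 25 bases, without molecular identifiers, so counts include PCR copies. The annotation release and the handling of reads with several matches are not stated in those sources.

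Age groups were compared by edgeR 4.0.16 under R 4.3.3 (quasi-likelihood F test, TMM factors), keeping genes that filterByExpr retained at a count of 10 and a total of 15, with Benjamini-Hochberg adjustment at 0.05 over 11681 genes, with no covariate. SEs were derived from F and the fold change, and 95% intervals use the moderated degrees of freedom. A floor of 3 counts was 0.628 to 0.852 CPM, for counting error only. Lengths, positions and transcripts came from GENCODE vM21 of the same build, and promoter windows from RefSeq (GRCm38.p6).

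The series design states 1 mouse per replicate. The members and lists were chosen with earlier results of these data known. Named genes were the 10 members, from each pathway list up to 4 of smallest p among those passing or else the 2 of highest level, and from each marker list those at 0 and the 2 of highest level. Others were named after their values had been seen, and some genes that the rule names are not reported here. DESeq2 1.42.0 and limma 3.58.1 served as alternatives. On simulated counts for the 11681 genes of this comparison the fit recovered 62.9% of 2-fold and 100.0% of 4-fold changes with 8 false calls. The simulation gave all genes 1 common dispersion and held no outlying library. Its shares may therefore not hold for genes that vary more inside the groups. Protein sequences were not used here.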

Additional observations from a re-analysis of the deposited data

How the results depend on the processing

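The single call among the 10 genes, Traf1, was the same under all 15 refits tried (other scalings, filters, tools, thinning to equal total counts, a replicate block and each library left out), at log2 fold changes of −1.94 to −1.79, and at an adjusted p under 0.01. DESeq2 called 2 of the 10, adding Traf2, and called 916 genes in all (475 lower, 441 higher), with 13 of the other pathway genes and 3 of them higher, against 425, 247, 178, 8 and 1 in edgeR. At an adjusted p under 0.01 there were 162 genes (96 lower, 66 higher) and 2 pathway genes, both lower, with 0 higher. Library totals and the stricter filter each gave 2 higher pathway genes. Leaving out 1 library gave 139 to 488 genes (84 to 271 lower, 55 to 217 higher) and 1 to 7 pathway genes (1 to 6 lower, 0 to 1 higher). The replicate numbers are not said to pair the mice. Same-numbered libraries had correlations of deviations of −0.047, −0.011 and −0.092, and they did not correlate best with their own number. With 3 libraries per group such values cannot show whether numbers share a litter or a day. The replicate block gave 326 genes and 1 of the 10.

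Directions near 0 turned. Traf5 was at 0.0087 and Prkcq at 0.021 with no filter, and Tnfaip3 at 0.0033 with the replicate block. Leaving out 1 library gave −0.21 to 0.058 for Traf3, −0.11 to 0.057 for Traf5, −0.34 to 0.48 for Tnfaip3 and −0.080 to 0.027 for Prkcq. The cause was not tested. With coding transcripts as lengths, chosen after seeing the data, Traf1 made up 36.7% and 15.004% of the adaptors in adult and infant cells. The broader motif matched 8 genes.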
